A study of Rattus norvegicus with 6 samples.

Results

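The genes described here are 10 heat shock chaperone genes of the rat testis, 3 of them known mainly from germ cells (Hspa1l, Hspa2 and Hspa4l), 3 general or constitutive (Hspa8, Hsp90ab1 and Hsph1), 3 induced by stress in somatic cells (Hspa1b, Hsp90aa1 and Hspb1), and Hsf1, the transcription factor that drives the heat shock response. They were taken by gene symbol from a table of gene expression, in which all 10 symbols were found. Because Hspa8 labels 2 rows with different Ensembl identifiers, the genes occupy 11 of the 35291 rows of the table. All 11 rows passed the filter on low values, as did 20338 rows in all.

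RNA-Seq was carried out on whole testes of Sprague-Dawley rats, an outbred strain, with 3 DM rats and 3 Nor rats. The DM rats had been fed a high-fat diet and then injected once with streptozotocin (STZ), a toxin of pancreatic beta cells, at 35 mg/kg, and they were counted as diabetic if their blood glucose stayed high. The Nor rats, which were non-diabetic, received citrate buffer, and the methods do not say clearly whether they had the high-fat diet. Testes were collected 8 weeks after the injection. STZ in fat-fed rats removes beta cells chemically, and the study describes the result as a model of type 2 diabetes. The deposited values are FPKM, fragments scaled by transcript length and by library size, so levels of different genes can be compared with each other per unit of length. The comparison of DM with Nor rats asks whether the chaperones of the testis differ in diabetes, and here whether germ-cell chaperones differ from general and stress-induced ones.

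Heat shock proteins bind unfolded stretches of other proteins and release them with the use of ATP, which lets the client fold or be passed on. HSP70 proteins hold short segments of new or damaged chains, J-domain proteins deliver the clients, HSP110 proteins and BAG proteins exchange the nucleotide, HSP90 proteins finish the folding of kinases and steroid receptors, and small heat shock proteins hold clients without ATP. The testis is known for making its own versions of this machinery during meiosis and spermatid differentiation, and its germ cells are known to be sensitive to heat.

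In heat stress HSF1 forms a trimer that binds heat shock elements, which are runs of the unit GAA and its complement TTC, separated by pairs of free bases. RefSeq promoters (assembly GRCr8), each with 250 bases before and 50 bases after the gene start, were found for 7 of the 10 genes, and Hsp90aa1, Hspa1b and Hsf1 were not in that table. The stretches that hold such units upstream of the start of Hspa2, Hspa8, Hsph1 and Hspb1 are shown because they set a germ-cell member beside general and stress-induced members. Each is written 5′ to 3′ along the strand of its gene. Capitals mark a GAA and a TTC that face each other across a pair of free bases. Other GAA or TTC triplets are left in lower case. The Hspa2 stretch lies at chr6:100864368-100864395 (plus strand), within the annotated span of the gene. Those of Hspa8 lie at chr8:50080286-50080328 and chr8:50080444-50080486 (plus strand), those of Hsph1 at chr12:10427248-10427285 and chr12:10427317-10427359 (plus strand), and that of Hspb1 at chr12:26432388-26432445 (minus strand), all upstream of the annotated genes.
Hspa2: ctctgagagtTTCcaGAAggcagggggt
Hspa8, distal: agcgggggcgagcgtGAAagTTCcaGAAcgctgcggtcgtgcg
Hspa8, proximal: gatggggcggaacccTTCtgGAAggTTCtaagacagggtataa
Hsph1, distal: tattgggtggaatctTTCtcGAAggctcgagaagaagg
Hsph1, proximal: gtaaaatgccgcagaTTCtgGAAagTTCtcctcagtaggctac
Hspb1: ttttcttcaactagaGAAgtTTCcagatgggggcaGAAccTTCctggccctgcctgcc

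Hspa8 had 2 runs of 3 units, whose first unit began 213 and 55 bases before the start, and Hsph1 had 1 such run, 36 bases before the start. Hspa2 had a single pair, 64 bases before the start, and Hspb1 had 2 separate pairs, 129 and 109 bases before it. Over the 7 promoters a pair of units (TTCNNGAA or GAANNTTC, which overlap in a run of 3) was found in 5, the fifth being Hspa4l, where the pair begins 39 bases after the start. Such a pair was present in 15.9% of all 33469 RefSeq promoters. A run of 3 (TTCNNGAANNTTC or GAANNTTCNNGAA) was found in 2 of the 7, Hspa8 and Hsph1, and in 0.798% of all promoters. Every motif was searched on both strands, and each of these motifs reads as itself or as the other listed form on the opposite strand. Neither form of pair was found in the windows of Hspa1l and Hsp90ab1. The cAMP response element TGACGTCA, a motif read by CREM and CREB factors, was found in the window of Hsp90ab1 and in 1.83% of all promoters. These are matches of letters in a window of fixed length and were not tied to binding by any measurement.

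**Figure D1:**
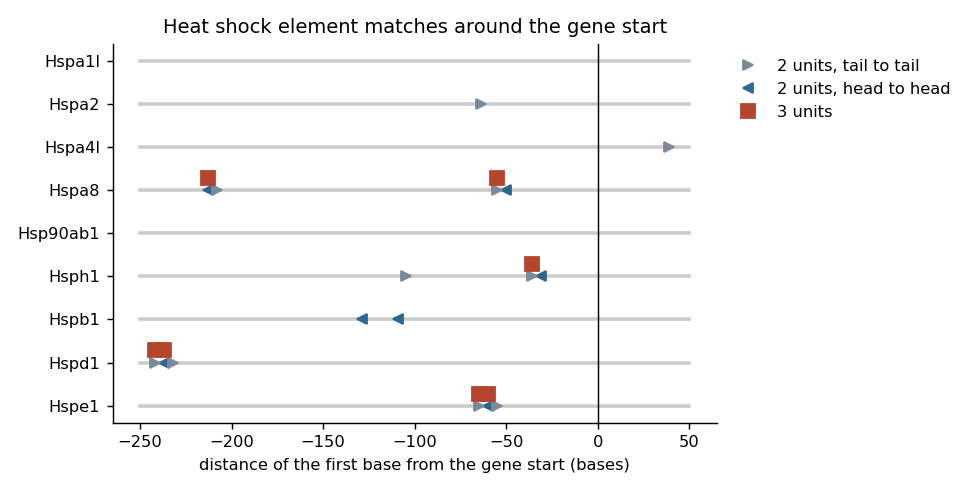
Positions of heat shock element matches between 250 bases before and 50 bases after the gene start (x axis, bases from the start; 1 grey line a gene). Triangles mark pairs of units and squares runs of 3 units, which occur in Hspa8 and Hsph1 among the members and in Hspd1 and Hspe1, whose windows overlap.

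Among the 10 genes, Hsp90aa1 and the germ-cell members had the highest levels in every one of the 6 testes, while the classical stress-inducible Hspa1b was near 1 FPKM. Ordered by the mean over 6 rats, the levels were 532 FPKM for Hsp90aa1, 481 for Hspa2, 287 for Hspa1l, 280 for Hspa4l, 94.9 for Hsp90ab1, 82.8 for Hspa8, 9.23 for Hsph1, 7.92 for Hsf1, 6.75 for the second row of Hspa8, 6.62 for Hspb1 and 0.822 for Hspa1b. The order has 4 steps at which the ranges over rats did not overlap, namely from Hspa2 to Hspa1l, from Hspa4l to Hsp90ab1, from Hspa8 to Hsph1 and from Hspb1 to Hspa1b. Neighbours within each level overlapped: Hsp90aa1 was above Hspa2 in 4 of 6 rats, and Hspa1l above Hspa4l in 4 of 6. Hsp90aa1 ranked between 62 and 78 among all 35291 rows of a sample and Hspa2 between 72 and 91, whereas Hspa1b ranked between 17429 and 19057. The 11 rows together held 0.371% to 0.403% of the summed FPKM of a sample.

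**Figure D2:**
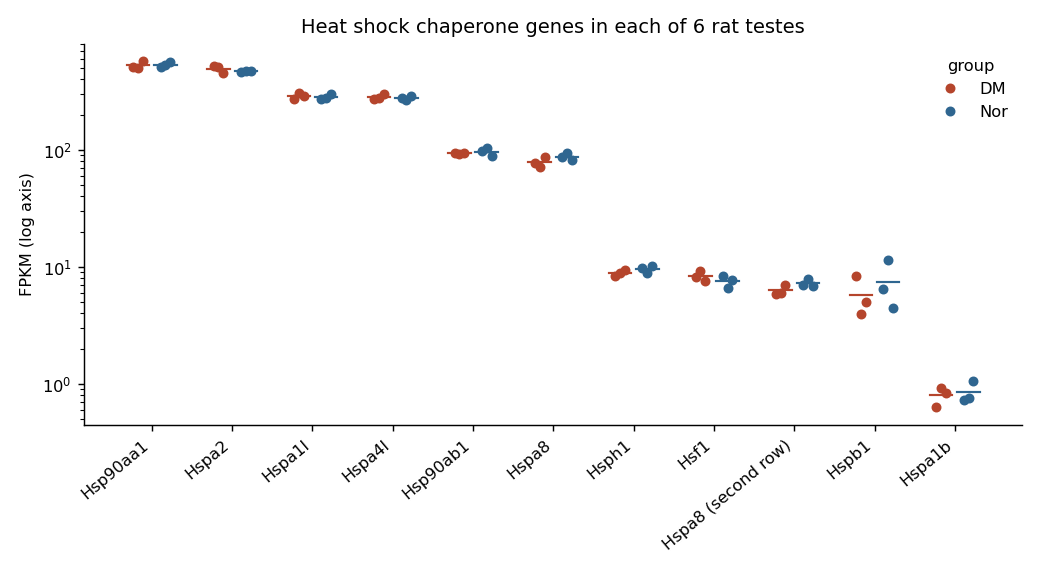
FPKM (log axis) of each chaperone row in each rat, with DM rats in red and Nor rats in blue, 3 points a group, and a line at each group mean. The levels run from 504 to 571 FPKM for Hsp90aa1 down to 0.630 to 1.05 FPKM for Hspa1b, and the DM and Nor points overlap for every row.

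No difference between DM and Nor rats passed a test for any member. The criterion asked for a log2 fold change of 1 or more in size and, before adjustment, a p-value under 0.05 in limma. It called 0 of the 11 rows, against 253 of all 20338 genes tested (1.24%). At an unadjusted p-value below 0.05 alone the members again numbered 0, against 7.46% of all genes (502 higher and 1015 lower in DM rats), and after Benjamini-Hochberg adjustment 0, against 0.0344% of all genes. The ranges of the groups overlapped for all 11 rows, while they did not overlap for 13.0% of all genes. The lowest adjusted p-value of any member was 0.776. With 3 rats a group the exact permutation test cannot give a p-value below 0.1, and its lowest value for a member was 0.3. The p-values set the difference between the groups against the spread between animals within them. Nothing in the labels says how the rats were housed or whether the samples were processed together. Any such effect that went with the group cannot be told apart from it.

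The 95% interval of every member's fold change crossed 0, while the changes of Hspa2, both rows of Hspa8, Hsph1 and Hsf1 were larger than their standard errors (SE). The 3 germ-cell members had log2 fold changes of 0.03 to 0.08 (DM minus Nor, of FPKM + 0.1), the 4 rows of general members -0.20 to -0.04, and the 3 stress-induced members -0.32 to -0.01. The median over the 11 rows was -0.04 and the median over all genes tested was -0.02, with 36.4% of the rows and 44.4% of all genes positive. Leaving out single rats turned the sign of Hspa1l, Hspa4l, Hsp90ab1, Hspa1b, Hsp90aa1 and Hspb1, and scaling by median ratios turned that of Hsp90aa1. The 95% intervals of the 4 most abundant genes reached at most 11.6% lower and 17.2% higher, and those of Hspb1 and Hspa1b were the widest.

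**Figure D3:**
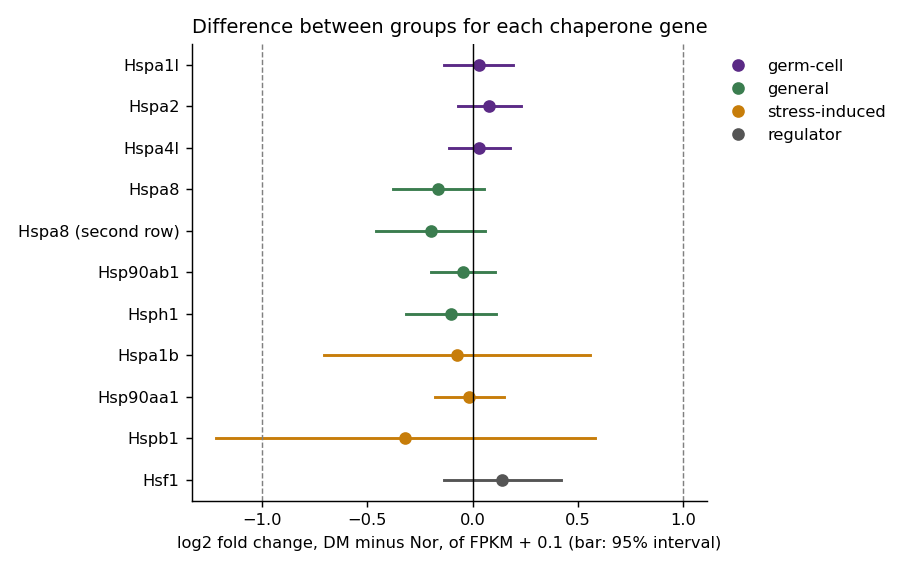
Log2 fold change between DM and Nor rats (x axis, of FPKM + 0.1; limma, 3 rats a group) for each chaperone row, with its 95% interval as a bar, coloured by role. All intervals cross 0, and the dashed lines at -1 and 1 are reached only by the interval of Hspb1, which extends to -1.22.

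HSPA2 is the HSP70 of pachytene spermatocytes and is required for the male meiotic divisions. Its levels were 518, 510 and 456 FPKM in the DM rats and 458, 473 and 471 FPKM in the Nor rats. In the DM group 2 rats lay above all Nor rats and the third below them, so the groups overlapped. The log2 fold change was 0.08 ± 0.06 (SE, n = 3 rats a group; limma adjusted p = 0.856), with a 95% interval from 4.70% lower to 17.2% higher.

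HSPA1L is an HSP70 of spermatids, encoded beside the inducible Hspa1a and Hspa1b in the major histocompatibility complex. It was measured at 272, 308 and 288 FPKM in the DM rats and at 272, 277 and 302 FPKM in the Nor rats. The lowest values of the groups were nearly equal, and the log2 fold change was 0.03 ± 0.07 (SE; adjusted p = 0.962 by limma). In GRCr8 the annotated spans of Hspa1l and Hspa1a overlap by 468 bases, and the sources used here do not say whether the strand of the reads was used. HSPA4L, an HSP110-type exchange factor that is abundant in the testis, was at 270, 280 and 298 FPKM in the DM rats and at 276, 265 and 290 FPKM in the Nor rats. Its groups also overlapped, with a log2 fold change of 0.03 ± 0.06 (SE; adjusted p = 0.951 by limma).

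HSC70, the product of Hspa8, is the HSP70 that nearly every cell makes without stress. The main row of Hspa8 read 76.9, 70.8 and 87.0 FPKM in the DM rats and 86.8, 93.9 and 81.4 FPKM in the Nor rats. Replicate 3 of the DM group lay inside the range of the Nor rats, and the other DM rats lay below it. The log2 fold change was -0.16 ± 0.09 (SE; adjusted p = 0.780 by limma), with an interval from 23.0% lower to 3.70% higher. The second row of Hspa8 read 5.83, 6.01 and 7.01 FPKM in the DM rats and 6.97, 7.88 and 6.80 FPKM in the Nor rats, a log2 fold change of -0.20 ± 0.11 (SE). Without replicate 3 of the DM group, Hspa8 and its second row (lower in DM rats) and Hspa2 (higher) had unadjusted limma p-values below 0.05, with adjusted p-values of 0.588 to 0.630.

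HSP90-beta, the product of Hsp90ab1, is the constitutive HSP90. It was at 94.1, 92.6 and 93.4 FPKM in the DM rats and at 97.3, 103 and 89.1 FPKM in the Nor rats, so that the DM values lay within the Nor range. HSPH1 (HSP105), an HSP110 protein, was at 8.38, 8.91 and 9.40 FPKM in the DM rats and at 9.78, 8.82 and 10.1 FPKM in the Nor rats. The log2 fold changes were -0.04 ± 0.07 for Hsp90ab1 and -0.10 ± 0.09 for Hsph1 (SE; adjusted p = 0.929 and 0.876 by limma). Over the 6 rats Hsph1 stood at a mean of 9.23 FPKM, against 280 FPKM for its germ-cell relative Hspa4l and 43.8 FPKM for Hspa4.

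HSP90-alpha, the product of Hsp90aa1, is heat-inducible in somatic cells and is made without stress in male germ cells. Hsp90aa1 was at 512, 504 and 571 FPKM in the DM rats and at 512, 528 and 562 FPKM in the Nor rats. Both the lowest and the highest value were those of DM rats, and the log2 fold change was -0.01 ± 0.07 (SE; adjusted p = 0.981 by limma). Hspa1b, an inducible HSP70, was at 0.630, 0.927 and 0.838 FPKM in the DM rats and at 0.733, 0.756 and 1.05 FPKM in the Nor rats. Its level was low in all 6 testes, and the interval of its difference ran from 38.6% lower to 47.0% higher on the scale of FPKM + 0.1, which understates the fold of genes near 0.1 FPKM.

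HSPB1 (HSP27), a small heat shock protein of muscle, vessels and other somatic cells, varied most from rat to rat. Hspb1 was at 8.42, 3.97 and 5.01 FPKM in the DM rats and at 6.41, 11.5 and 4.47 FPKM in the Nor rats. Each group held high and low rats, and the interval of the log2 fold change (-0.32 ± 0.38, SE; adjusted p = 0.919 by limma) ran from -1.22 to 0.58.

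Hsf1 was at 8.16, 9.13 and 7.63 FPKM in the DM rats and at 8.32, 6.59 and 7.72 FPKM in the Nor rats. Its groups overlapped, and the log2 fold change was 0.14 ± 0.12 (SE; adjusted p = 0.865 by limma). HSF1 is known to be controlled largely after translation, which transcript levels do not measure.

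Several members have annotated copies in the table whose reads may be shared. A row described as HSP 90-alpha (LOC103692716) was at 501, 498 and 537 FPKM in the DM rats and at 512, 523 and 549 FPKM in the Nor rats, and Hsp90aa1 was 1.002 to 1.064 times that row in every rat. Hspa1a was 1.03 to 1.14 times Hspa1b in every rat. How the authors' processing divided reads between the genes of each pair was not tested, and the levels of both genes of a pair are uncertain for that reason. The copies of Hspa8, which are its second row and 4 further rows, held 34.0% to 36.7% of the summed Hspa8 FPKM.

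The sum of Hspa8 and its copies was 117, 112 and 133 FPKM in the DM rats and 134, 146 and 127 FPKM in the Nor rats, which overlapped. Of the copies, LOC688655 had values of 7.90, 7.63 and 8.50 FPKM in the DM rats and 8.98, 11.02 and 9.12 FPKM in the Nor rats. Every DM value was below every Nor value, with a log2 fold change of -0.27 (adjusted p = 0.649 by limma). For each of the other copies of Hspa8 the groups overlapped, and they did not overlap for 13.0% of all genes.

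**Figure D4:**
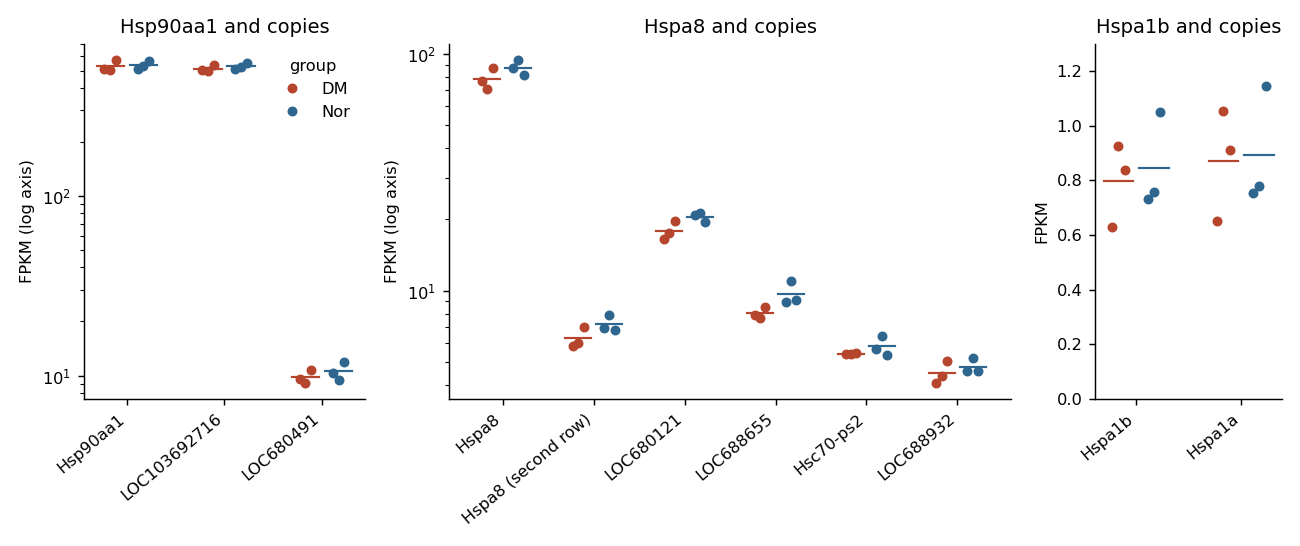
FPKM of Hsp90aa1, Hspa8 and Hspa1b beside the rows annotated as their copies, in each DM (red) and Nor (blue) rat with group means as lines; the left and middle panels have log axes and the right panel a linear axis from 0. LOC103692716 lies at the level of Hsp90aa1 and Hspa1a at that of Hspa1b, whereas the copies of Hspa8 lie between 4.09 and 21.3 FPKM.

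Ratios within a rat set germ-cell against general members without regard to library scaling, and they are given as descriptions. The cytosolic HSP70 FPKM were summed over Hspa1l, Hspa2, both rows of Hspa8, Hspa1b and Hspa1a. Of this sum Hspa1l and Hspa2 made up 90.4%, 91.2% and 88.6% in the DM rats and 88.5%, 87.9% and 89.5% in the Nor rats. The means were 90.1% ± 1.33 and 88.6% ± 0.834 (SD, n = 3 each), and the groups overlapped. With the further copies of Hspa8 also counted in, the share was 84.7% to 87.8% in the DM rats and 83.6% to 85.7% in the Nor rats.

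Hspa2 exceeded the main row of Hspa8, without its copies, by 6.73, 7.21 and 5.25 times in the DM rats. In the Nor rats it did so by 5.28, 5.04 and 5.79 times, so 2 DM rats were above all Nor rats and the third was not. Hsp90aa1 exceeded Hsp90ab1 by 5.67 ± 0.392 times in the DM rats and by 5.57 ± 0.645 times in the Nor rats (SD, n = 3 each). If the HSP 90-alpha copy is added to Hsp90aa1, the ratios were 10.8 to 11.9 and 10.2 to 12.5. The germ-cell Hspa4l exceeded its general relative Hspa4 by 6.75, 6.67 and 6.44 times in the DM rats and by 6.43, 5.89 and 6.20 times in the Nor rats, groups that just failed to overlap.

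The summed marker transcripts of spermatocytes and spermatids overlapped between the groups. Spermatocyte markers (led by Ldhc and Pgk2, enzymes of germ-cell glycolysis) summed to 1558 to 1647 FPKM in the DM rats and 1535 to 1714 FPKM in the Nor rats. Elongating spermatid markers, led by Prm1 and Tnp1, which pack sperm DNA, summed to 9870 to 11490 FPKM and 9371 to 12180 FPKM. Round spermatid markers summed to 503 to 571 FPKM and 503 to 579 FPKM, and Sertoli cell markers, led by Clu, to 313 to 330 FPKM and 265 to 333 FPKM. Of 7 tested Sertoli cell markers, 5 had positive log2 fold changes. Wt1 was higher without overlap, at 13.0 to 13.9 FPKM in the DM rats and 11.9 to 12.4 FPKM in the Nor rats (adjusted p = 0.703 by limma). Single markers differed from these sums: the spermatocyte marker Ccna1, a cyclin of meiosis, was at 78.4 to 84.6 FPKM in the DM rats and 69.0 to 76.2 FPKM in the Nor rats (log2 fold change 0.17, adjusted p = 0.613 by limma). The round spermatid marker Acr, a protease of the acrosome, was at 67.7 to 71.3 FPKM and 63.7 to 67.2 FPKM (adjusted p = 0.790 by limma). Both were higher in every DM rat than in any Nor rat, and their part in the values of the germ-cell members was not tested. The ranges of the groups were separate for 1 of 7 tested Sertoli cell markers, 1 of 8 spermatocyte markers and 1 of 6 round spermatid markers. Among all genes tested this was so for 13.0%. Of the 8 spermatocyte markers, 4 had positive and 4 negative log2 fold changes. Of the 6 round spermatid markers, 1 (Acr) was positive and 5 were negative.

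Spermatogonium markers summed to 57.36 to 68.7 FPKM in the DM rats and 53.4 to 57.28 FPKM in the Nor rats, a sum carried by Uchl1, at 43.5 to 53.0 FPKM and 35.6 to 40.9 FPKM. Of the 6 markers 4 had negative log2 fold changes, with a median of -0.17. Kit was lower without overlap (-0.30, adjusted p = 0.635 by limma), and Uchl1 was higher without overlap (0.34, adjusted p = 0.485 by limma). The ranges were thus separate for 2 of the 6, against 13.0% of all genes. Macrophage markers summed to 25.6 to 30.8 FPKM and 30.4 to 31.9 FPKM, a sum carried by Mrc1, at 18.5 to 23.5 FPKM and 21.2 to 22.0 FPKM. All 5 macrophage markers had negative log2 fold changes. Csf1r (-0.80, adjusted p = 0.336 by limma) and Cd68 (-0.98, adjusted p = 0.629 by limma) were lower in every DM rat than in any Nor rat, with unadjusted p-values below 0.05. These were 2 of the 5 macrophage markers. Of all genes tested, 13.0% had separate ranges and 7.46% an unadjusted limma p-value below 0.05. Peritubular markers summed to 72.8 to 79.3 FPKM and 74.7 to 94.3 FPKM, endothelial markers to 2.37 to 3.02 FPKM and 2.35 to 3.25 FPKM, and blood markers to 33.9 to 73.9 FPKM and 40.2 to 67.9 FPKM.

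Leydig cell markers (Star, Cyp11a1, Cyp17a1, Insl3 and Lhcgr) summed to 26.8 to 55.4 FPKM in the DM rats and 81.6 to 115 FPKM in the Nor rats, and all 5 were lower without overlap, with unadjusted limma p-values below 0.05 for all 5 and an adjusted one below 0.05 for 1, Cyp17a1. In bulk tissue fewer cells of a type and less RNA per cell cannot be told apart. The part of the lower Leydig cell and macrophage transcripts in the chaperone values was not tested. By the low values of shared genes the libraries had relative depths of 0.966 to 1.09 in the DM rats and 0.893 to 1.02 in the Nor rats, and the number of reads behind each value is unknown.

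Outside the 10 genes, 86 further genes of the chaperone network were listed by family, of which 81 passed the filter on low values; Hsf4, Hspb2, Hspb3, Cryaa and Cryab did not. The criterion was passed by 0 of the 81 (1.24% over all genes), and Hspd1 alone had an unadjusted limma p-value below 0.05 (7.46% over all genes). DM and Nor ranges were separate for 9 of the 81 (13.0% over all genes), 5 higher and 4 lower in DM rats. The median log2 fold change was 0.02, with 54.3% positive, and all 81 lay between -0.34 and 0.20.

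Hspd1 encodes HSP60, the chaperonin of mitochondria. Its values were 15.3, 14.99 and 18.5 FPKM in the DM rats and 19.4, 19.3 and 20.1 FPKM in the Nor rats, and every DM rat was below every Nor rat. The log2 fold change was -0.28, with a 95% interval of -0.50 to -0.05 (adjusted p = 0.588 by limma). When single rats were left out it ran from -0.37 to -0.22, and its unadjusted p-value was no longer below 0.05 without replicate 1 or 2 of the DM group or replicate 3 of the Nor group. Its partner Hspe1, which encodes HSP10, was at 13.8, 13.9 and 10.6 FPKM in the DM rats and at 11.01, 15.9 and 16.5 FPKM in the Nor rats, with overlap and a log2 fold change of -0.17 (adjusted p = 0.906 by limma). Both genes read outward from a shared region on opposite strands, and their RefSeq windows share 211 bases. That region, at chr9:64084247-64084294 (GRCr8, written along the plus strand, the strand of Hspe1), overlaps the annotated span of Hspd1. It holds a run of 4 heat shock units and is shown because Hspd1 was the listed gene with the lowest p.
Hspe1 and Hspd1: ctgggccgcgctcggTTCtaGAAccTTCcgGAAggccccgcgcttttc

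Among the further listed genes, a pair of units was found in 17 of 75 promoters and a run of 3 in 5 (Cct4, Chordc1, Dnaja1, Hspd1 and Hspe1). The shares over all RefSeq promoters were 15.9% and 0.798%. Hspd1 and Hspe1 enter both counts by the same shared stretch. Of 15 listed targets of HSF1, 14 were tested, 6 with a positive and 8 with a negative log2 fold change and a median of -0.01. Hspd1 was the only target with an unadjusted limma p-value below 0.05, which is 1 of 14, against 7.46% of all genes. The most abundant of the targets was Dnajb4, a J-domain protein, at 228, 263 and 268 FPKM in the DM rats and 228, 239 and 271 FPKM in the Nor rats.

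The other families were described by their most abundant gene and by the gene with the lowest p-value. Among heat shock factors, Hsf5, a factor of male germ cells, was at 88.8, 82.6 and 87.5 FPKM in the DM rats and at 80.5, 82.3 and 81.2 FPKM in the Nor rats, without overlap but with an adjusted p of 0.806 (limma). The most abundant gene of that list, Hsbp1, a small protein that binds HSF1, was at 140 to 152 FPKM over all rats. Of the other HSP70 and HSP110 genes, Hspa5 (BiP), the HSP70 of the endoplasmic reticulum, was the most abundant at 205 to 220 FPKM, and the lowest p belonged to Hspa4 at 40.1 to 46.8 FPKM (adjusted p = 0.902 by limma). Hsp90b1, the HSP90 of the endoplasmic reticulum, was at 227 to 248 FPKM, and Trap1, that of mitochondria, had the lower p of the 2 (log2 fold change 0.17, adjusted p = 0.830 by limma).

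Among small heat shock proteins, Odf1, a structural protein of the sperm tail, was at 2847 to 3553 FPKM and Hspb9, a small heat shock protein of the testis, at 1275 to 1552 FPKM, both above every one of the 10 genes. Hspb6, found in muscle, was at 3.89, 3.58 and 3.87 FPKM in the DM rats and at 5.005, 4.33 and 4.03 FPKM in the Nor rats, without overlap (log2 fold change -0.23, adjusted p = 0.758 by limma). Of 21 J-domain genes, 14 had a positive and 7 a negative log2 fold change. Dnajc5b was the most abundant of them at 300 to 322 FPKM, and Dnaja3, of mitochondria, had the lowest p (adjusted p = 0.758 by limma). Dnajb3, a testis gene with the lowest p among testis chaperones, was at 228, 224 and 219 FPKM in the DM rats and at 187, 212 and 217 FPKM in the Nor rats (adjusted p = 0.767 by limma).

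Of 10 genes that exchange the nucleotide of HSP70 or regulate it, 6 were positive. Bag1 was the most abundant at 337 to 378 FPKM, and Bag5 had the lowest p, with 116, 118 and 117 FPKM in the DM rats against 104, 112 and 111 FPKM in the Nor rats (log2 fold change 0.10, adjusted p = 0.758 by limma). Of 15 HSP90 co-chaperones, 4 were positive and 11 negative. Ppid, a cyclophilin that binds HSP90, had the lowest p, with 9.25, 9.72 and 12.9 FPKM in the DM rats and 11.3, 13.8 and 15.1 FPKM in the Nor rats (log2 fold change -0.34, adjusted p = 0.712 by limma), and Ptges3 (p23) was the most abundant at 134 to 157 FPKM. Of 11 chaperonin genes 7 were positive, and Cct5, a subunit of the cytosolic chaperonin, was the most abundant at 358 to 408 FPKM.

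**Figure D5:**
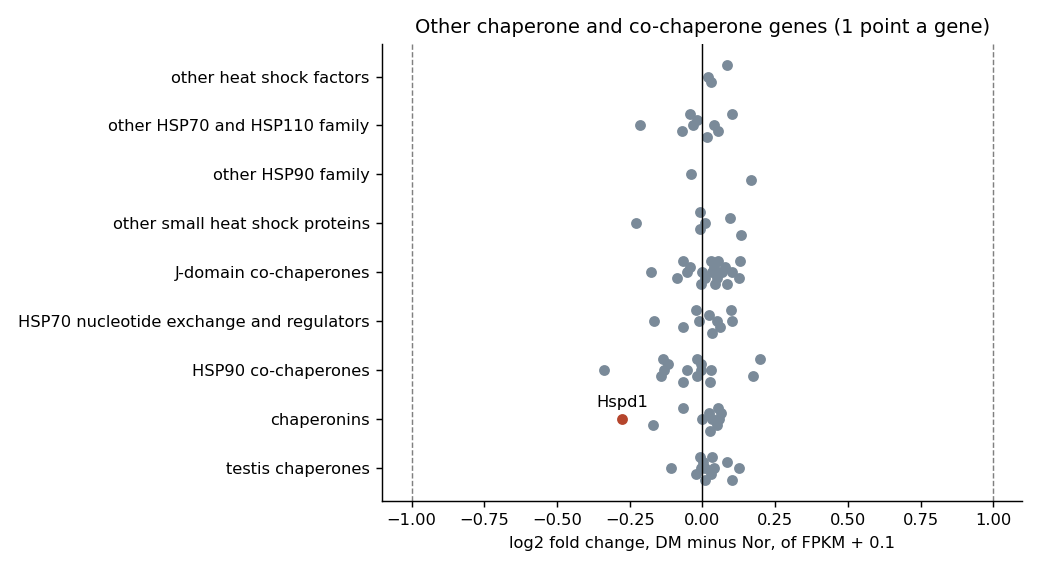
Log2 fold change between DM and Nor rats (x axis, of FPKM + 0.1) for the 81 tested chaperone genes outside the 10, in rows by family (y axis; a gene may stand in 2 rows, and the vertical offset within a row has no meaning). Hspd1, in red, is the gene with an unadjusted p-value below 0.05, and no gene comes near the dashed lines at -1 and 1.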

How the data were processed

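RNA-Seq of 3 DM and 3 Nor rat testes was used. The authors checked reads with FastQC, compared them with rRNA by BWA, aligned them with STAR and assembled transcripts with StringTie; build and versions are not given in the sources used here. The deposited values are FPKM per gene, calculated by the authors, without counts. FPKM were transformed to log2(FPKM + 0.1), which damps the folds of low genes, and rows with a mean of at least 0.5 FPKM were compared with limma 3.58.1 (lmFit, eBayes with trend; R 4.3.3). Tests were two-sided, and p-values were adjusted by Benjamini-Hochberg over all 20338 rows. The steps were tested on simulated data in which every planted change was larger than the fold threshold. Smaller changes, such as those of the members, were not covered. Single genes were also compared by an exact two-sided permutation test. Groups and replicate numbers came from the labels, and no pair of libraries had identical values. The genes and lists were chosen with earlier results of these data known. All 10 members were named, and of other lists the most abundant gene, the gene with the lowest p, and any gene past a threshold. Hspe1, LOC688655, Hspb9 and the single markers Ccna1, Acr, Wt1, Kit, Csf1r and Cd68 were named after their values were seen. The same holds for the genes listed as filtered out, non-overlapping or holding a motif. The ratios of Hspa2 to Hspa8 and of Hspa4l to Hspa4 were not planned. Promoters came from RefSeq (GRCr8). Alternatives were another pseudocount, filter, scaling, variance model or gene set, rows summed by symbol, a replicate block, and leaving out each rat.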

Additional observations from a re-analysis of the deposited data

How the results depend on the processing

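No member passed the criterion or an adjusted p-value of 0.05 in limma under any alternative run, and of 174 recomputed member values 162 kept their sign. At an unadjusted p-value below 0.05 the members numbered 0, and 0 to 3 when single rats were left out; the 3 appeared without replicate 3 of the DM group, with adjusted p-values of at least 0.588. The sign of Hsp90aa1 turned with median-ratio scaling (0.015). When single rats were left out the log2 fold changes spanned -0.0172 to 0.0758 for Hspa1l, -0.00745 to 0.0650 for Hspa4l, -0.100 to 0.00396 for Hsp90ab1, -0.178 to 0.0740 for Hspa1b, -0.0715 to 0.0224 for Hsp90aa1 and -0.627 to 0.0415 for Hspb1. The cause was not tested.

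The other chaperone genes with an unadjusted p-value below 0.05 numbered 1 in the main comparison, 3 with median-ratio scaling, 2 among protein-coding genes only, and 0 to 4 when single rats were left out; the count was 0 without replicate 2 of the DM group and without replicate 3 of the Nor group, 3 without replicate 1 of the Nor group, and 4 without replicate 3 of the DM group. Over all genes, 253 passed the criterion, 91 with a pseudocount of 1, 621 without a filter, 417 after rescaling to TPM (with the pseudocount and filter unscaled) and 85 among protein-coding genes only, for which fewer genes were tested.

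Deviations of rats with the same replicate number correlated at 0.106, 0.0153 and 0.0979, and those of rats with different numbers at -0.126 to 0.0318. The values 0.106 and 0.0979 were above every correlation between different numbers. Whether the numbers stand for pairs or a shared step is not known, and the main comparison did not pair the animals. With the replicate block 284 genes passed the criterion, the other chaperone genes at an unadjusted p-value below 0.05 numbered 2, and the members 0. With 3 rats a group the intervals of Hspa1b and Hspb1 leave room for changes of 38.6% or more in either direction, and the depth in reads is unknown.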

Other observations

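Hsf2bp, which encodes a binding partner of HSF2 that also acts in meiotic recombination, was in none of the lists and was picked after its values were seen. It was at 4.01, 6.37 and 5.81 FPKM in the DM rats and at 3.57, 3.37 and 3.25 FPKM in the Nor rats. Every DM rat was above every Nor rat, with a log2 fold change of 0.63 and a 95% interval of 0.21 to 1.05 (adjusted p = 0.492 by limma). Separate ranges were found for 13.0% of all genes, and an unadjusted limma p-value below 0.05 for 7.46%. HSF2 itself, a heat shock factor of the testis, was at 36.9, 33.3 and 40.4 FPKM in the DM rats and at 40.6, 35.7 and 32.9 FPKM in the Nor rats, with overlap.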
